A study of Homo sapiens with 9 samples.

Results

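KLF2, a transcription factor that governs where T cells travel, was examined together with the genes of the receptors and adhesion molecules of T cell trafficking in the human T-ALL cell line ALL-SIL after knockdown of *PHF6*. The set held 8 of the 19722 genes with a named probe on the array, *KLF2*, *KLF3*, *S1PR1*, *CCR7*, *CCR8*, *CCR9*, *CXCR4* and *ITGB7*. Its members were chosen by gene symbol, with the siRNA-against-control differences on these same arrays already known, so those differences are a description, and how many passed limma's threshold is printed only beside the share of all probes that did, with nothing read from it. Every probe whose transcript identifier mapped to one of the symbols was taken, which gave 8 probes, 1 per gene, of 57176 in all. All 8 were well above background on all 9 arrays, and 33586 probes of the array passed the filter of at least 3 such arrays.

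RNA was measured on 9 one-colour Agilent arrays, 3 from cells electroporated with a control siRNA, 3 with *PHF6* siRNA1 and 3 with *PHF6* siRNA2. All groups were the same cell line, and no untreated or mock-electroporated group was analysed here. Cells were collected at 96 h by most labels and by the methods, while a free-text label of the same samples gives 72 h. The *PHF6* siRNAs were a single Silencer Select siRNA and a SMARTpool of several siRNAs, and which of them is siRNA1 is not stated. The knockdown was transient, and a cell line in suspension culture has no vessels, thymus or gut to migrate to. Replicate numbers 1 to 3 run through the groups, and the study calls the replicates independent.

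KLF2 is a zinc-finger factor that is kept on in quiescent naive T cells and switched on late in thymocyte development, where it activates transcription of *S1PR1*. S1PR1 senses the lipid sphingosine-1-phosphate, abundant in blood and lymph, and is needed for T cells to leave the thymus and lymph nodes, while chemokine receptors and integrins decide where they enter. *KLF2* itself is turned on by FOXO1 and by the ERK5 kinase acting on MEF2 factors, and KLF factors bind CACCC boxes in DNA.

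Of the 5 members with a promoter window, only *KLF2* held a match to the MEF2 consensus. CACCC or GGGTG lay in every window of the other members and not in that of *KLF2*. The share of all promoter windows with each motif is given below. The start-site regions of 3 of these members, *KLF2*, *S1PR1* and *ITGB7*, are shown. Each is the stretch of 250 bases before the gene's RefSeq start on GRCh38.p14, 5′ to 3′ on the gene's strand, and capitals mark the matches. That of *KLF2* lies at chr19:16324576-16324825 on the plus strand, that of *S1PR1* at chr1:101236769-101237018 on the plus strand and that of *ITGB7* at chr12:53207252-53207501 on the minus strand.
KLF2: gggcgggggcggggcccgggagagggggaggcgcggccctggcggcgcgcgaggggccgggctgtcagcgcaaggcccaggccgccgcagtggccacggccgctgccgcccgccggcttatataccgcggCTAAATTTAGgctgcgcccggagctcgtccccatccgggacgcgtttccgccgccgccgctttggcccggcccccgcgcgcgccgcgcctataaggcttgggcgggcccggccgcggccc
S1PR1: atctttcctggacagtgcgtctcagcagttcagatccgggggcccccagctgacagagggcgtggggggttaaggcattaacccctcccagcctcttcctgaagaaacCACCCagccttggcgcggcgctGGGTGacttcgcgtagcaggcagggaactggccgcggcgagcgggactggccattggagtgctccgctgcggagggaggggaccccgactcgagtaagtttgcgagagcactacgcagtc
ITGB7: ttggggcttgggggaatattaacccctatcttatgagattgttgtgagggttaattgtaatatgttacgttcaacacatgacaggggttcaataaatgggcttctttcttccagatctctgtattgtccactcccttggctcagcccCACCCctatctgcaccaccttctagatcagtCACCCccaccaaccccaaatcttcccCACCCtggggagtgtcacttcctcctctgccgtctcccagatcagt
The capitals in *KLF2* mark 1 match to the MEF2 consensus, read on both strands, from 120 to 111 bases before the start. Such a match was found in 2.80% of 35116 RefSeq promoter windows of this length. *KLF2* had no CACCC or GGGTG, whereas *S1PR1* had 2 and *ITGB7* had 3, marked in capitals. At least 1 of these pentamers occurred in 54.7% of all windows and 2 or more in 23.1%, overlapping matches counted. The 2 windows of *CCR9* held 2 matches each, and the 3 windows of *CXCR4* held 2, 2 and 3. The FOXO-type letters GTAAACA or TGTTTAC, found in 2.98% of all windows, were in none of the 8 windows of these 5 members. A match of letters describes the sequence and not binding. *KLF3*, *CCR7* and *CCR8* had no entry in the promoter table.

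*PHF6*, the PHD-finger gene targeted by the siRNAs, was measured first as a check of the labels. Values here and below are normalized log2 values in the order of replicates 1, 2 and 3, and a value is compared only with values of the same probe. For *PHF6* they were 11.07, 11.17 and 10.86 with control siRNA, 9.39, 9.69 and 9.12 with siRNA1, and 9.20, 9.28 and 9.14 with siRNA2. The 6 siRNA arrays all lay below the 3 control arrays. The level with both siRNAs was 30.2% of control, a log2 difference of -1.73 (SE 0.14, limma adjusted p = 0.00248).

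The arrays carried between 29662 and 33736 probes well above background, with no saturated spot. All 15 T-lineage marker genes were tested, and their mean log2 value was 11.91 to 12.19 on control arrays, 11.75 to 12.01 with siRNA1 and 11.80 to 11.98 with siRNA2. Of those 15, *CD7* (-0.76) and *PTCRA* (-0.73) passed as lower in the limma fit that compares arrays within a replicate number, which called 2.37% of genes (adjusted p = 0.0124 and 0.00837), and not in the fit without that block (0.586 and 0.644). *CD1A* differed by 0.71 and *CD1B* by 0.47 (limma adjusted p = 0.073 and 0.0894 with the block). Of the markers of other lineages, 4 of 6 B-lineage, 3 of 7 myeloid and 3 of 5 erythroid genes were tested. The B-lineage means were 8.48 to 8.68, 8.18 to 8.66 and 8.20 to 8.39 in the same order of groups, and *CD79B* (-0.48) was the one of these genes that passed with the block (limma adjusted p = 0.0416, and 0.725 without it). *CD22*, *CD33*, *FCGR3A*, *S100A8* and *HBB* were not well above background on any array. The myeloid means were 5.39 to 5.54, 5.20 to 5.47 and 5.35 to 5.48, and the erythroid ones 7.79 to 8.19, 7.77 to 8.28 and 7.55 to 8.11. The part of these shifts in the results was not tested. In bulk RNA, fewer cells of one kind and less RNA per cell cannot be told apart. On each slide the control, siRNA1 and siRNA2 arrays held the first, the third and the fourth position, so slide position and group cannot be told apart.

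*KLF2* was the one member whose 6 siRNA arrays all lay above all 3 control arrays. Its control values were 8.81, 8.85 and 8.82. With siRNA1 the values were 9.29, 9.99 and 9.87, and with siRNA2 they were 9.49, 9.84 and 9.50. The control arrays were nearly level, replicate 1 was the lowest of each siRNA group, and the siRNA and control groups did not overlap. Group means were 8.82 ± 0.02 with control siRNA, 9.72 ± 0.38 with siRNA1 and 9.61 ± 0.20 with siRNA2 (SD, n = 3). The log2 difference of both siRNAs from control was 0.84 (SE 0.16), a fold of 1.79, made of 0.90 for siRNA1 and 0.79 for siRNA2. Against the control array of the same number, siRNA1 differed by 0.49, 1.14 and 1.06 and siRNA2 by 0.68, 1.00 and 0.68, so every knockdown array was higher than its own control. Of 33509 tested probes with a value on every array, 3.89% had their 6 siRNA arrays entirely above or entirely below the controls. *KLF2* was among the members for which that pattern was known beforehand, so nothing is read from it.

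*KLF3* encodes a related factor that binds the same kind of CACCC box and acts mainly as a repressor. The control arrays gave 11.87, 11.66 and 11.61, the siRNA1 arrays 11.67, 11.25 and 11.66 and the siRNA2 arrays 11.90, 11.74 and 11.68. The ranges overlapped throughout, and the lowest value was replicate 2 of siRNA1. The difference of both siRNAs from control was -0.06 (SE 0.13), with -0.19 for siRNA1 and 0.06 for siRNA2.

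*S1PR1*, the egress receptor and a direct target of KLF2, had values of 5.51, 6.08 and 5.84 with control siRNA. They were 5.30, 6.79 and 6.59 with siRNA1 and 5.66, 6.78 and 6.18 with siRNA2. The replicate 1 arrays were the low ones in each group and siRNA and control ranges overlapped, although 5 of the 6 siRNA arrays lay above their own control. Within replicate numbers the differences were -0.21, 0.71 and 0.75 for siRNA1 and 0.15, 0.70 and 0.34 for siRNA2, the exception being replicate 1 of siRNA1. The mean difference was 0.41 (SE 0.33 without and 0.15 with the replicate number in the fit). It was 0.26 without replicate 1 of control siRNA, 0.64 without replicate 1 of siRNA1, 0.27 without replicate 2 of siRNA1 and 0.26 without replicate 2 of siRNA2. This was the dimmest member, with median spot intensities of 52 to 127 over a local background of 21 to 26, and no spot was less than 2.17 times its background.

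**Figure D1:**
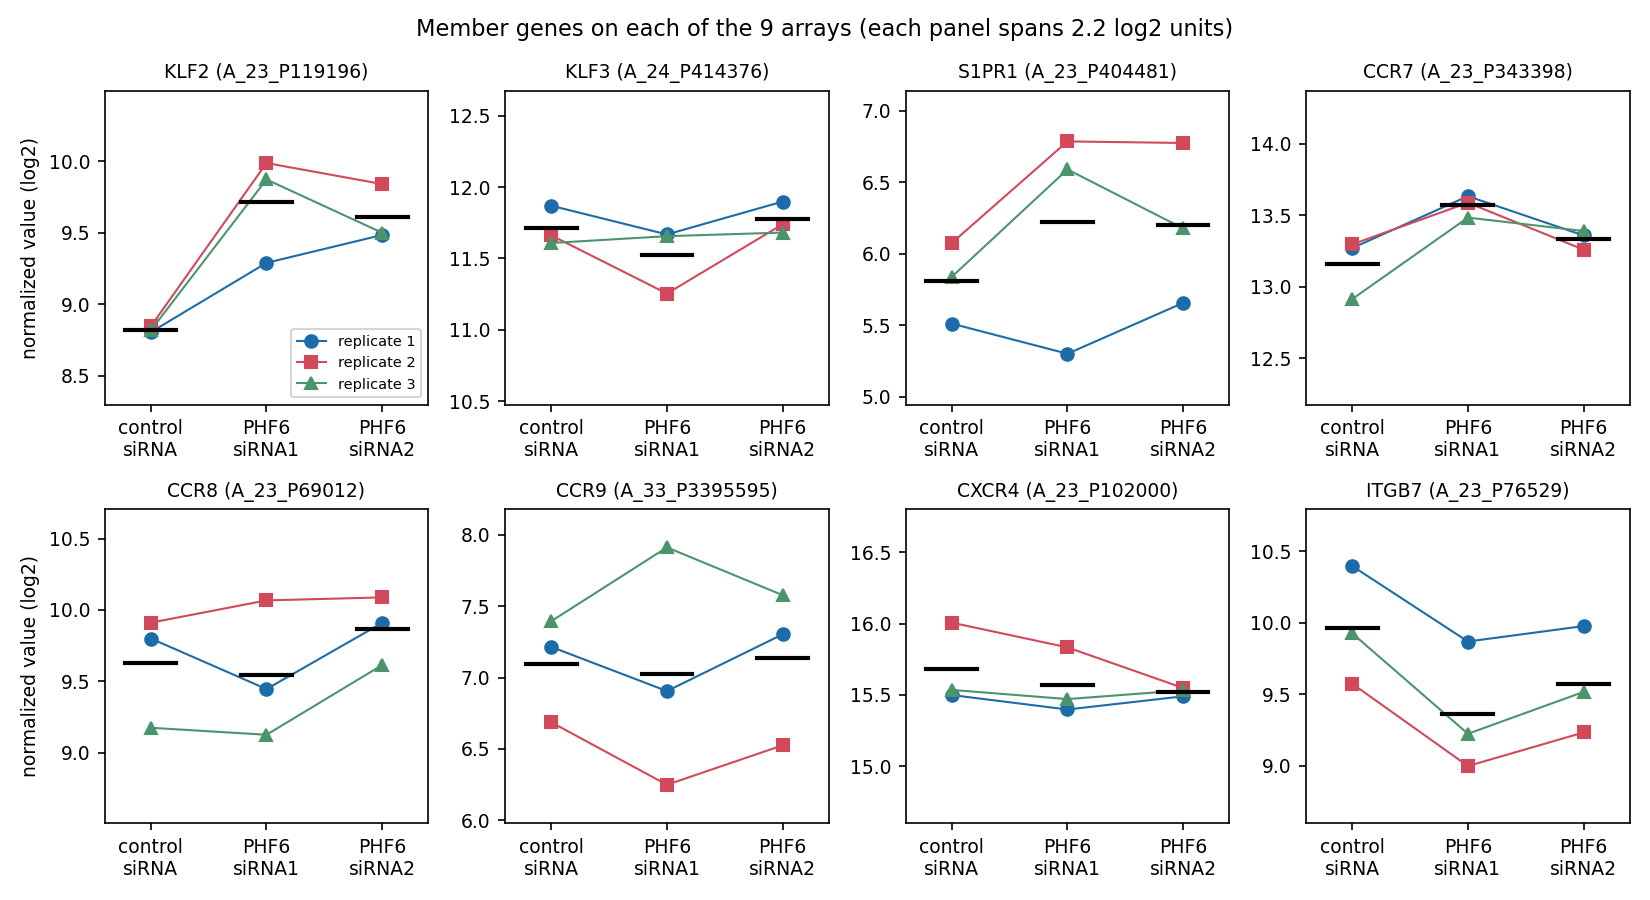
Normalized log2 value of each of the 8 genes (1 panel and 1 probe each) on the 3 control siRNA, 3 *PHF6* siRNA1 and 3 *PHF6* siRNA2 arrays, with lines joining arrays of the same replicate number, black bars marking group means and the same axis span of 2.2 log2 units in every panel. The siRNA values of *KLF2* all sit above its 3 control values. The lines of *ITGB7* fall from 3 separate control levels to siRNA1 and rise in part to siRNA2.

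In the panels by array, most members are ordered by replicate number more than by siRNA. For 6 of the 8, all but *KLF2* and *CCR7*, the difference of both siRNAs from control was smaller than the range of the means of the 3 replicate numbers. That range was 0.37 log2 units for *KLF2* itself, against its difference of 0.84.

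The chemokine receptors came next. *CCR7*, which guides naive T cells to lymph nodes along CCL19 and CCL21, was a bright probe with control values of 13.27, 13.30 and 12.91. The siRNA1 values were 13.63, 13.59 and 13.48 and the siRNA2 values 13.36, 13.26 and 13.39. All 3 siRNA1 arrays exceeded all 3 control arrays, whereas siRNA2 overlapped them, and the low control array was replicate 3. Means were 13.16 ± 0.21, 13.57 ± 0.08 and 13.34 ± 0.07 for control siRNA, siRNA1 and siRNA2 (SD, n = 3). The difference was 0.29 for both siRNAs (SE 0.12), 0.41 for siRNA1 and 0.18 for siRNA2. It was 0.17 without replicate 3 of control siRNA.

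*CCR8*, the CCL1 receptor found on skin-homing and regulatory T cells, gave 9.80, 9.91 and 9.18 on control arrays. With siRNA1 it read 9.45, 10.07 and 9.13, and with siRNA2 9.91, 10.09 and 9.61. Replicate 3 was lowest in every group and replicate 2 highest. The difference of both siRNAs from control was 0.08 (SE 0.23), with -0.08 for siRNA1 and 0.24 for siRNA2.

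*CCR9*, the CCL25 receptor of thymocytes and gut-homing T cells, read 7.21, 6.69 and 7.40 with control siRNA, 6.91, 6.25 and 7.91 with siRNA1 and 7.30, 6.53 and 7.58 with siRNA2. Here replicate 2 was the lowest and replicate 3 the highest of each group, and the groups overlapped. The mean difference was -0.02 (SE 0.34), and 3 siRNA arrays lay above and 3 below their own control. Its spots were dim as well, at 75 to 276 against a lowest ratio to background of 3.41.

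*CXCR4*, the CXCL12 receptor that holds precursors in marrow and thymus, was the brightest member, with spot intensities of 44361 to 62049 and none flagged as saturated. Its values were 15.50, 16.01 and 15.54 with control siRNA, 15.40, 15.83 and 15.47 with siRNA1 and 15.49, 15.55 and 15.53 with siRNA2. Replicate 2 of the control group stood above the other control arrays, and the groups overlapped. All 6 siRNA arrays lay below their own control, with a difference of -0.46 in replicate 2 of siRNA2 and between -0.173 and -0.003 in the rest. The mean difference was -0.13 (SE 0.15), and it was 0.03 without replicate 2 of control siRNA.

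*ITGB7* encodes the integrin chain that pairs with ITGA4 or ITGAE and carries lymphocytes into gut tissue. Control arrays gave 10.40, 9.57 and 9.93. The siRNA1 arrays gave 9.87, 8.997 and 9.22, and the siRNA2 arrays 9.98, 9.23 and 9.52. The ranges of the groups overlapped, and replicate 1 was the highest and replicate 2 the lowest in each group. Taken within numbers, siRNA1 differed by -0.53, -0.58 and -0.70 and siRNA2 by -0.42, -0.34 and -0.41, so that every siRNA array was below its own control. Group means were 9.97 ± 0.41, 9.36 ± 0.45 and 9.58 ± 0.38 (SD, n = 3). The difference of both siRNAs from control was -0.50 (SE 0.24 without and 0.08 with the replicate number in the fit), a level 1.41 times lower. In the fit without the block it was -0.28 without replicate 1 of control siRNA and -0.69 without replicate 2 of control siRNA. Leaving out a single control array also shifts the level that its replicate number brings. Within replicate numbers the mean of both siRNAs differed from control by -0.47, -0.46 and -0.56.

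**Figure D2:**
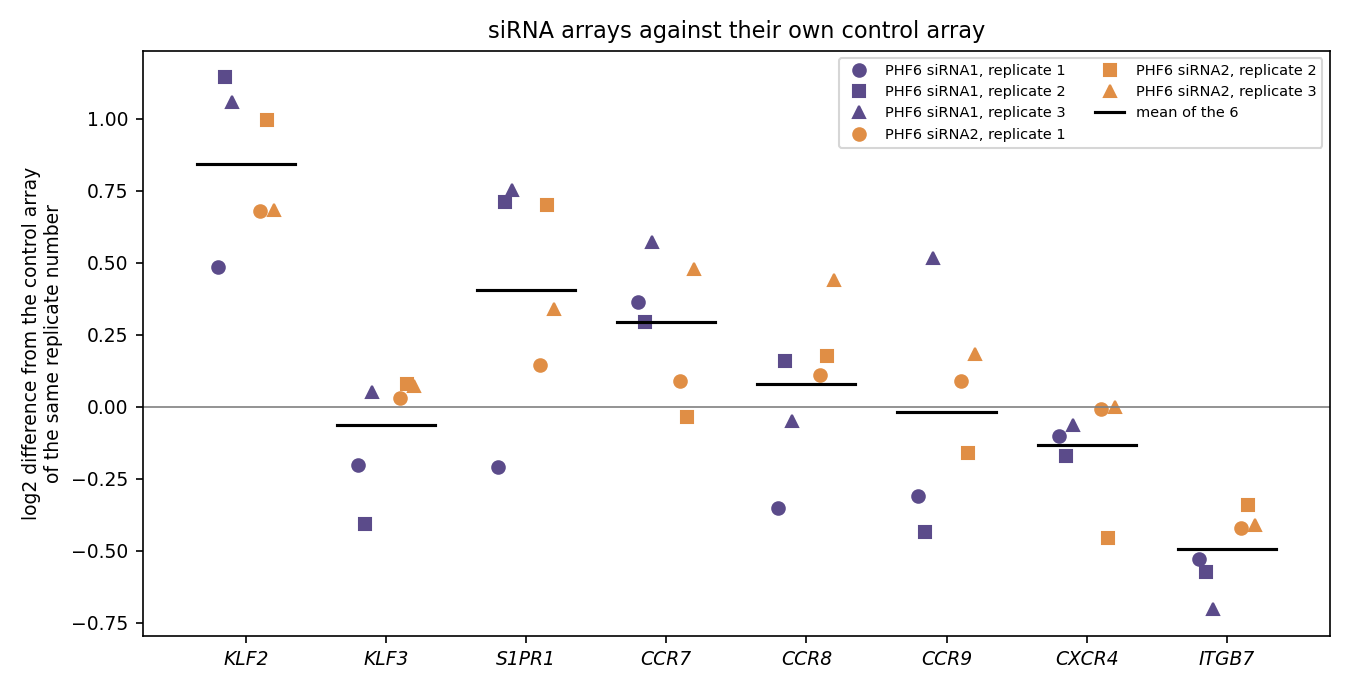
Log2 difference of each *PHF6* siRNA array from the control siRNA array of the same replicate number, with shape giving the replicate, colour the siRNA, and the black bar the mean of the 6 differences of a gene. *KLF2* lies wholly above 0, *ITGB7* and *CXCR4* wholly below it, and the other members on both sides.

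Across the set, 4 members had a positive and 4 a negative difference, with a median of 0.03. Over 14680 genes at 1 probe each the median was -0.04, and 41.1% of genes had a positive difference. For 3 members, *KLF2*, *CXCR4* and *ITGB7*, all 6 siRNA arrays lay on one side of their own control, as for 21.5% of 33509 tested probes. *S1PR1* and *CCR7* lay above their own control on 5 of the 6 siRNA arrays.

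In the limma fit that treats the 9 arrays as 3 groups, none of the 8 members passed an adjusted p of 0.05 for both siRNAs against control, where 0.00893% of tested probes did. At an unadjusted p under 0.05 there were 2, *KLF2* and *CCR7*, beside 7.43% of probes. For siRNA1 alone none passed the adjusted threshold (0.00893% of probes) and the same 2 members the unadjusted one (5.93%), and for siRNA2 alone none passed (0.0119%) and 1 did unadjusted, *KLF2* (5.9%). With a block for the replicate number, which removes the level each number brings to all its arrays, 2 members passed for both siRNAs, *KLF2* as higher and *ITGB7* as lower, beside 2.74% of probes. The blocked fit called the same 2 for siRNA1 (0.947% of probes) and *KLF2* for siRNA2 (1.65%). These counts describe genes whose differences were known when they were picked, and nothing is read from them. The block is given beside each count because arrays of the same number deviated together. Without replicate 2, the blocked fit called neither gene, and without replicate 1 or 3 it called *KLF2* and not *ITGB7*. Those fits called 5 of 33586 probes without replicate 2, 45 without replicate 1 and 672 without replicate 3, against 919 with all replicates.

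The comparison of siRNA2 with siRNA1 sets no array against a control array, and it was tested. The differences of both siRNAs from control were known when the members were picked, so the test is not independent of that choice. None of the 8 members passed between the *PHF6* siRNAs in limma (adjusted p = 1 for each, none at an unadjusted p under 0.05). The same comparison called 0% of tested probes, and 2.51% had an unadjusted p under 0.05. For *KLF2* the difference was -0.11 (95% interval -0.53 to 0.31). The intervals were -0.10 to 0.59 for *KLF3*, -0.55 to 0.08 for *CCR7* and -0.43 to 0.34 for *CXCR4*. They were wider for *S1PR1* (-0.86 to 0.82), *CCR8* (-0.26 to 0.90), *CCR9* (-0.76 to 0.99) and *ITGB7* (-0.41 to 0.83). All intervals crossed 0, which does not show that the siRNAs act alike.

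**Figure D3:**
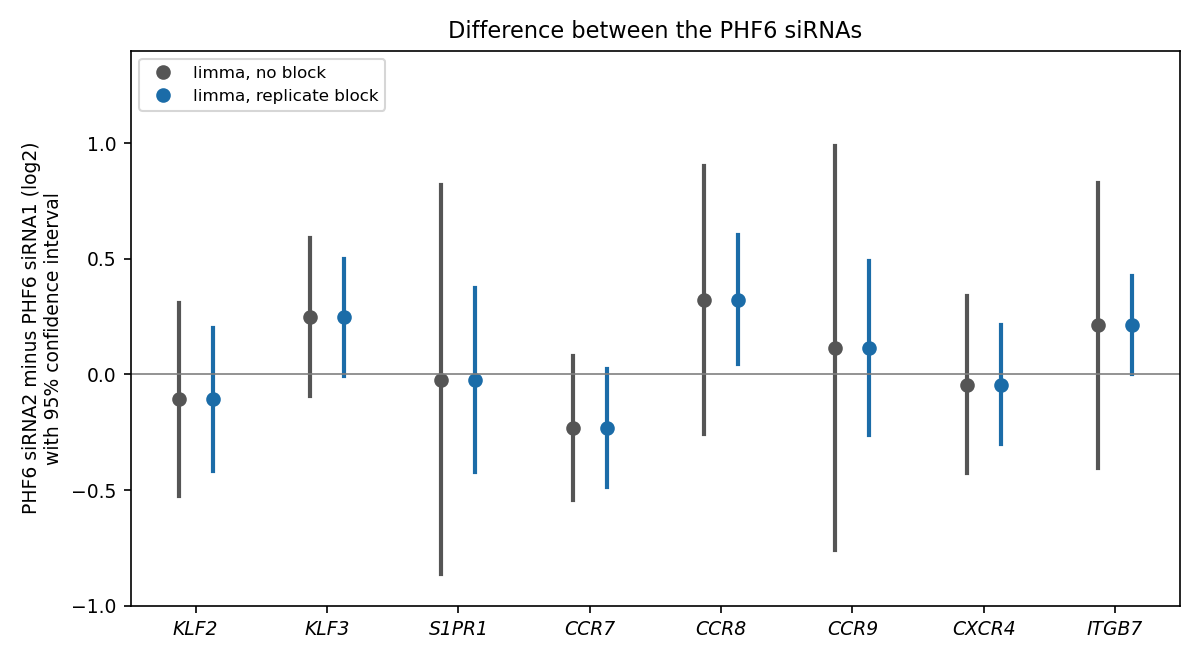
Difference of *PHF6* siRNA2 from *PHF6* siRNA1 for each gene on the log2 scale, with its 95% confidence interval from limma without a block (grey) or blocked by replicate number (blue). Grey intervals all cross 0, and the blue ones of *CCR8* and *ITGB7* lie just above it.

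With the replicate block, limma again called no member between the siRNAs (0.0387% of probes called), and 2 had an unadjusted p under 0.05, beside 9.67% of probes. They were *CCR8*, at 0.32 (95% interval 0.05 to 0.60, limma adjusted p = 0.475), and *ITGB7*, at 0.21 (0.00 to 0.42, limma adjusted p = 0.516). In both cases siRNA2 was above siRNA1 in 3 of 3 replicates. The adjusted p values of the 8 members were between 0.475 and 0.977.

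The rest of the pathway was described from 6 lists that leave the members out, 130 genes in all, of which 116 were tested at their brightest probe. In limma without a block none of the 116 passed for both siRNAs against control, where 0.00681% of genes did, and 8 had an unadjusted p under 0.05, against 6.38% of genes. With the block 7 passed, 1 as higher and 6 as lower, beside 2.37% of genes. The difference was positive for 37 of the 116 and negative for 79, with a median of -0.06. Over all 14680 tested genes 41.1% were positive, with a median of -0.04. The 7 are described with the block's adjusted p, and without it the adjusted p of each was between 0.408 and 0.742. The lists and tests were chosen with earlier results of these data known. These adjusted p values are therefore a description and not independent support. None of the 116 was called between the siRNAs in either fit, and 5 had an unadjusted p under 0.05 without the block, beside 2.51% of probes.

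Other KLF genes and the regulators of *KLF2* gave 11 positive and 12 negative differences of 23 tested, with a median of 0.00. *KLF10*, a TGF-beta-induced repressor, was the one called, and it fell. Its values were 10.85, 10.64 and 10.73 with control siRNA, 10.57, 10.06 and 9.90 with siRNA1 and 10.44, 9.68 and 9.77 with siRNA2, and every siRNA array was below all control arrays. The log2 difference was -0.67 (SE 0.113 and limma adjusted p = 0.0224 with the block, SE 0.20 and 0.644 without). Named after their values were seen, the known activators of *KLF2* were not called. *FOXO1* differed by 0.26 and was higher in 6 of 6 arrays than in their own control (limma adjusted p = 0.143 with the block), and *MEF2D* differed by 0.21 (0.243; its second probe by -0.21), *MEF2A* by 0.05 (0.783) and *MAPK7*, the gene of ERK5, by -0.05 (0.758).

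Of the sphingosine-1-phosphate pathway 13 genes were tested, 4 with a positive and 9 with a negative difference and a median of -0.13. *ARRB1*, the gene of beta-arrestin 1, which takes activated receptors off the surface, fell. It read 9.29, 9.22 and 9.43 with control siRNA, 8.76, 8.49 and 8.28 with siRNA1 and 8.72, 8.86 and 8.999 with siRNA2, with no overlap between siRNA and control arrays. Its difference was -0.63 (SE 0.122 and limma adjusted p = 0.0314 with the block, SE 0.134 and 0.408 without). *CD69*, whose protein pulls S1PR1 from the surface, and *S1PR3* and *S1PR5* were too dim to be tested.

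The other chemokine receptors held 4 of the 7 called genes, with 9 positive and 8 negative differences of 17 and a median of 0.13. *CXCR3*, the receptor of interferon-induced chemokines on effector T cells, fell from 9.19, 7.84 and 8.81 to 7.78, 6.17 and 7.56 with siRNA1 and 8.17, 6.49 and 7.84 with siRNA2. As with *ITGB7*, the replicate numbers started apart and each siRNA array lay below its own control, and the siRNA2 values reached into the control range. The difference was -1.28 (SE 0.096 and limma adjusted p = 0.000726 with the block, SE 0.45 and 0.646 without). Its second probe, well above background on 9 arrays, differed by -0.27. *CCR2*, a receptor of inflammatory monocytes and effector T cells, rose from 5.38, 6.28 and 5.45 to 5.61, 6.90 and 7.43 with siRNA1 and 6.15, 7.61 and 7.97 with siRNA2. Replicate 1 differed least and replicate 3 most from its own control, and the siRNA and control ranges overlapped. The difference was 1.24 (SE 0.248 and limma adjusted p = 0.0347 with the block, SE 0.45 and 0.646 without). The second probe of *CCR2* was not well above background on any array.

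*ACKR3*, a scavenger receptor that removes CXCL12, fell from 9.13, 8.70 and 8.16 to 8.73, 7.48 and 7.22 with siRNA1 and 8.90, 7.53 and 7.43 with siRNA2. *CCR10*, a receptor for skin and mucosal homing, fell from 9.48, 9.13 and 8.94 to 8.86, 8.64 and 8.37 with siRNA1 and 9.09, 8.95 and 8.79 with siRNA2. Both were below their own control on all 6 siRNA arrays, and the control range was overlapped by both siRNAs for *ACKR3* and by siRNA2 for *CCR10*. For *ACKR3* the difference was -0.79 (SE 0.14 and limma adjusted p = 0.0244 with the block, SE 0.40 and 0.725 without). That of *CCR10* was -0.40 (SE 0.084 and limma adjusted p = 0.0402 with the block, SE 0.16 and 0.646 without).

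Ligands of the member receptors gave 2 positive and 4 negative differences of 6 tested, with a median of -0.05. The homing integrins, selectins and their partners gave 6 and 15 of 21, with a median of -0.06, and no gene of either list was called. Among the 36 genes of receptor signalling and migration machinery 5 were positive and 31 negative, with a median of -0.15, beside 41.1% positive over all tested genes. *PREX1*, a Rac activator downstream of chemokine receptors, was the one called, and it fell. Its values were 10.61, 10.01 and 9.82 with control siRNA, 10.25, 9.28 and 9.16 with siRNA1 and 10.23, 9.73 and 9.12 with siRNA2, each siRNA array lower than its own control. The difference was -0.52 (SE 0.108 and limma adjusted p = 0.0393 with the block, SE 0.30 and 0.742 without). The largest positive difference in that list, chosen after its values were seen, was 0.90 for *RGS2*, a brake on G-protein signalling (limma adjusted p = 0.0723 with the block).

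**Figure D4:**
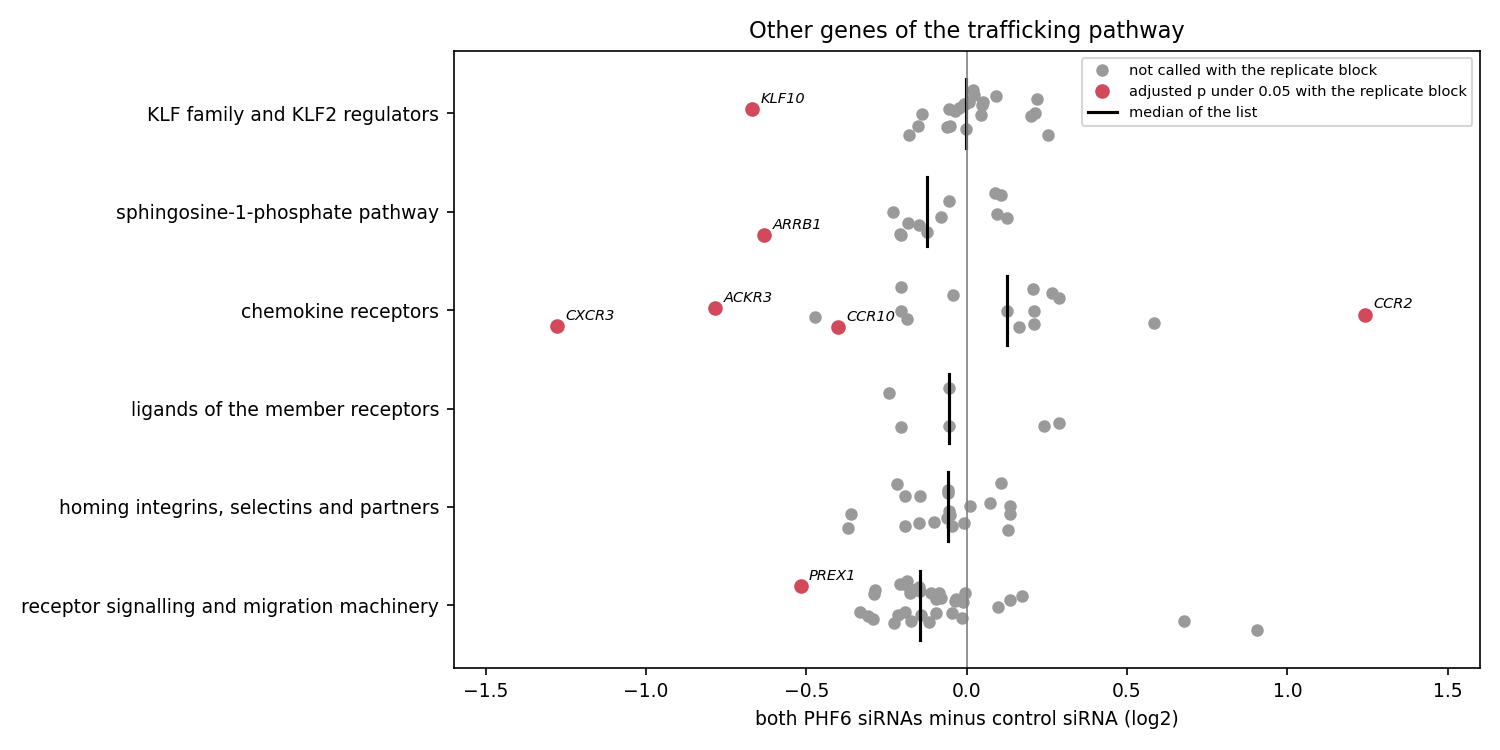
Log2 difference of both *PHF6* siRNAs from control siRNA for each tested gene of the 6 lists (1 point a gene, spread vertically to separate points), with red marking genes past an adjusted p of 0.05 in limma with the replicate block and black bars the median of each list. Of the 7 red genes *CCR2* lies to the right of 0 and the other 6 to its left, 4 of the 7 among the chemokine receptors.

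The plot of list genes also shows uncalled genes with differences larger than that of *CCR10*, such as *CCR1* at -0.47 and *CX3CR1* at 0.59, both named after their values were seen. For *CX3CR1*, replicate 2 of siRNA1 read 7.22, and the other arrays lay between 4.81 and 5.67. Its 6 siRNA arrays all lay above their own control. Without replicate 2 the blocked fit called none of the 116, beside 5 of 33586 probes. Without replicate 1 it called 4 (beside 45 probes), of which 3 were among the 7, and without replicate 3 it called 2 (beside 672 probes). *CXCR3* and *CCR2* were among them both times. With the block and another normalization, *CXCR3* was called each time and *CCR2* only with the deposited table.

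The genes whose profile over the 9 arrays was most like that of *KLF2*, among 13229 compared, were *TK2* (Pearson r 0.955, Spearman rho 0.867), *GCNT1* (0.939, 0.883), *ANAPC15* (0.925, 0.950), *KLLN* (0.912, 0.883) and *BMPR1B* (0.911, 0.950). These values describe arrays that share groups and replicate numbers. *TK2*, a mitochondrial thymidine kinase, read 6.25, 6.15 and 6.23 with control siRNA, 6.63, 6.82 and 6.77 with siRNA1 and 6.73, 6.90 and 6.68 with siRNA2. Its siRNA arrays all lay above its control arrays. None of the 5 is a member or in one of the 6 lists.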

How the data were processed

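The authors deposited, for each array, spot intensities from Agilent Feature Extraction (version 10.5.1.1 per the file headers, 9.1 in the submitters' processing notes), not normalized between arrays, with flags of 0 or 1 (other) for outlier, saturated and well-above-background spots. They also deposited a table of log2 values, which the methods describe as normalized with VSN and which served as an alternative. Here VSN was fitted to the median intensity by code written for the purpose (7 iterations, trimming quantile 0.9, Python 3.11.15, numpy 2.4.6, scipy 1.17.1), outlier spots were left out, and repeated spots were averaged. The normalized values are on a generalized log2 scale that compresses dim spots. This and the limma step were tested on simulated data. Array positions were annotated on hg19 by the labels and promoters come from RefSeq on GRCh38.p14, so probe positions are not given. Transcript identifiers were matched to RefSeq symbols, and 25729 of 57176 probes had 1 symbol.

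The fit took probes flagged well above background on 3 arrays or more, in R 4.3.3 with limma 3.58.1, over 3 groups sharing 1 estimate of the spread, with Benjamini-Hochberg adjustment over all tested probes and a threshold of 0.05. The main fit had no block, since the methods name no pairing. Deviations from group means correlated at 0.31 to 0.75 (median 0.60) in the 9 pairs of arrays with the same replicate number and at -0.57 to 0.13 (median -0.32) in the 18 other pairs, so the numbers of the sample labels were taken to pair the arrays, and the block is printed where it changes a call. Replicates 1 and 2 lay on slide 1 and replicate 3 on slide 2. Each replicate number lay in its own row of a slide, so replicate number and slide row cannot be told apart. Deviations sum to 0 within each group, so the negative values of the other pairs follow in part from the positive ones.

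The members, gene lists and tests were chosen with earlier results of these data known. Named were the members, *PHF6*, list genes past the threshold with or without the block (at most 4 per list by size) and the 5 genes most like *KLF2* by Pearson r. Each list gene was represented by its brightest probe. Alternatives were the processed signal with VSN or scaled to its 75th percentile, normexp with an offset of 50 and quantile normalization, the deposited table, other filters on dim probes, outlier spots kept, the replicate number or slide as a block, an intensity trend with robust fit, and leaving out each array. Arrays have no sequencing depth, and their number limits the precision. The 9 columns of the table all belonged to the 9 arrays, so no column was left unused.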

Additional observations from a re-analysis of the deposited data

How the results depend on the processing

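Without the replicate block, no alternative called a member for either siRNA or both against control, or a list gene for both, leaving out each array in turn included (0 to 0). List genes were not recomputed for each siRNA alone against control. With the replicate block, 2 members were called for both siRNAs, 2 for siRNA1 and 1 for siRNA2, beside 919, 318 and 553 probes. For both siRNAs 7 list genes were called. Combined with the block after seeing the data, VSN on the processed signal called 1 member (*ITGB7*, not *KLF2*) and 1 list gene (*CXCR3*) of 166 probes called. Scaling to the 75th percentile called 2 members and 1 list gene (*CXCR3*) of 272. Each of these settings called 0 members for siRNA1 (beside 29 and 38 probes) and 0 for siRNA2 (beside 46 and 53). Normexp with quantile normalization called 3 members (*CCR7* in addition) and 7 list genes for both siRNAs, of 1286 probes. Of these list genes 6 were also called by the main fit with the block, while *ICAM1* entered and *CCR2* was not called. The same setting called 3 members for siRNA1 (beside 481 probes) and 2 for siRNA2 (beside 919). The deposited table called 2 members and 7 list genes for both siRNAs, of 868 probes. These were the 7 list genes of the main fit with the block. It called 2 members for siRNA1 (beside 268 probes) and 1 for siRNA2 (beside 484). With the block and without 1 replicate number, 0 to 1 members and 0 to 4 list genes were called for both siRNAs. Probes called were 919 with all replicates, 45 without replicate 1, 5 without replicate 2 and 672 without replicate 3. For siRNA1 0 to 1 members were called, beside 36, 9 and 135 probes in the same order of replicates left out. For siRNA2 0 to 0 members were called, beside 13, 3 and 346 probes. The causes of these shifts were not tested. No comparison of siRNA2 with siRNA1 called a member or list gene under any of these settings.

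The *PHF6* difference was -1.84 with VSN on the processed signal, where limma gave an adjusted p of 0.0557, and its adjusted p was 8.11e-05 to 0.0491 in the other settings. Over the 26 alternatives the difference of *KLF2* was 0.73 to 0.97, that of *S1PR1* 0.24 to 0.64, that of *CCR7* 0.17 to 0.37 and that of *ITGB7* -0.69 to -0.28. Both ends for *ITGB7* came from leaving out a single control array without the block. They therefore also carry the level of the replicate number left out. The sign turned in 2 of 26 for *KLF3* (up to 0.02) and for *CCR8* (down to -0.15), in 7 for *CCR9* (up to 0.17) and in 1 for *CXCR4* (up to 0.03). The settings moved the median of all tested probes by at most 0.06. The lowest ratio of spot intensity to background was 2.17 for *S1PR1* and 3.41 for *CCR9*.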
